A study of Mus musculus with 1 sample.

Results

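The axon guidance ligands and receptors of the adrenal medulla library were taken by gene symbol, as all semaphorins of classes 3 to 7, plexins A to D, neuropilins, EphA and EphB receptors, ephrins, Slits, Robos and Unc5 receptors in the gene list, by a rule that uses no measured value. They are 67 of 32285 genes, of which 64 code for proteins and 3 are antisense RNAs of the *Plxna4* locus. They were measured in 1 droplet-based single-cell library that counts unique molecular identifiers (UMIs, each standing for 1 captured RNA molecule). The library came from the adrenal medullae of wild type mice at postnatal day 15, with 10 adrenals of 5 mice of mixed sex pooled after manual removal of most of the cortex, and it carries no treatment. Because the mice were pooled into 1 library there are no replicates and no tests, and every interval below covers counting error only.

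Axon guidance ligands and receptors steer growing axons and migrating cells, and most of them also act outside the nervous system, in blood vessel growth and in the sorting of cells at tissue boundaries. Class 3 semaphorins are secreted and are bound by neuropilins (*Nrp1*, *Nrp2*), which signal together with plexins, while most other semaphorins stay on the membrane and bind plexins directly. Ephrins are held on the cell surface and bind Eph receptors on neighbouring cells, so that both cells can receive a signal. Slit proteins are secreted ligands of Robo receptors, and Unc5 receptors bind netrins. The chromaffin cells of the adrenal medulla, which secrete adrenaline or noradrenaline, and the sustentacular cells that ensheath them come from the neural crest, whereas the cortex that surrounds them makes steroid hormones and is permeated by capillaries.

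The file holds 51421499 UMIs in 11214 barcodes, and 10139 cells with a median of 3566 UMIs passed the filters. Of these, 8904 fell into 17 classes named from marker genes, without any use of the axon guidance genes, and 1235 cells of mixed or unnamed clusters were left out, 49.1% of which were doublet calls against 0.696% in the named classes. The classes were adrenaline chromaffin-like (1654 cells), noradrenaline chromaffin-like (396), cycling chromaffin-like (91), transitioning adrenaline-like (93) and transitioning noradrenaline-like (324), which carry both chromaffin and sustentacular markers, and sustentacular-like (177). In the cortex they were outer (125), *Wnt4*+ *Cyp11b1*+ (467), fasciculata-like (681), inner (1796) and cycling (360), and among the remaining cells capillary (1469), *Mgp*-high (186) and cycling (478) endothelial-like, fibroblast-like (45), macrophage-like (519) and lymphocyte-like (43). All 7 chromaffin markers were found in at least 50% of the cells of each chromaffin and transitioning class. *Pnmt* in at least 50% of cells alone separated adrenaline from noradrenaline names. Of 11 sustentacular markers, 8 were in at least 25% of sustentacular-like, transitioning noradrenaline-like and transitioning adrenaline-like cells alike. In at least 50% it was 7, 2 and 1, in that order. The 50% level was met by 5 of 7 cortex markers in inner cortex. It was met by 4 of 6 fibroblast markers in fibroblast-like and 2 of 6 lymphocyte markers in lymphocyte-like cells. No cluster carried the arterial, mural or neutrophil name, so the planned comparison of arterial with other endothelial cells was not made. The lymphatic list was not used to name clusters. A level is given in CPM, the UMIs of the gene scaled to a total of 1000000 UMIs in the class, and levels of different genes are not compared with each other.

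The 67 genes held 36179 UMIs in the named classes, 0.0885% of all UMIs there, and 58 of them reached 20 UMIs. *Efna3* and the antisense *Plxna4os3* had no UMI. The others under 20 were *Epha1* with 13, *Sema3e* with 13, *Robo3* with 9, *Unc5d* with 4, *Slit1* with 3, *Epha6* with 1 and *Plxna4os2* with 1. All 9 plexins, both neuropilins, all 5 EphB receptors and all 13 semaphorins of classes 4 to 7 reached 20 UMIs. At least 100 UMIs were counted for 43 genes, and a further 15 had 23 to 96 UMIs.

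**Figure D1:**
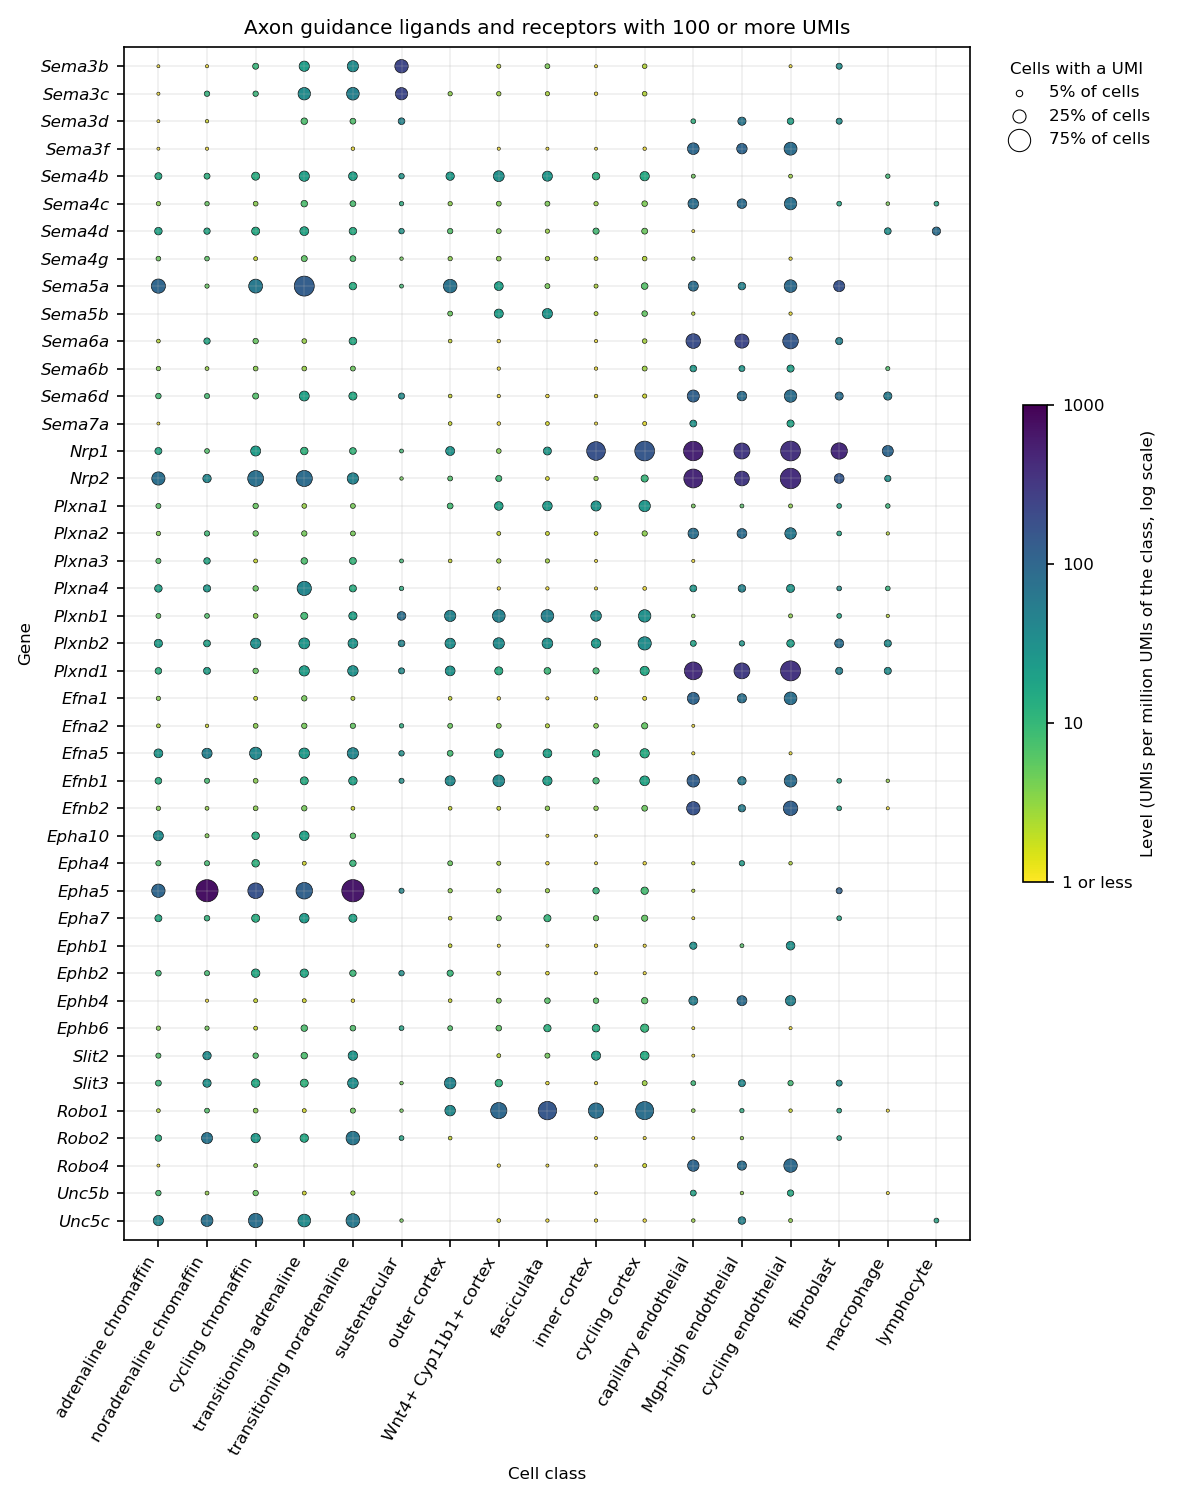
Each dot is one of the 43 axon guidance genes with at least 100 UMIs (rows, ordered by family) in one of 17 cell classes (columns). Colour gives the level in CPM on a log scale, size gives the percent of cells with a UMI, and an empty place means no UMI. *Nrp2*, *Plxnd1* and *Robo4* stand out in the 3 endothelial columns and *Epha5* in the noradrenaline columns. *Nrp1* is high in the endothelial columns and also in fibroblast-like cells and inner cortex.

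The classes were joined into 6 compartments (chromaffin and transitioning, sustentacular, cortex, endothelial, fibroblast, immune), and a gene was called highest in one where the 95% interval of its ratio to the next compartment lay above 1. Only the compartment next in level was compared, so a compartment without UMIs was not. There 3 UMIs would be 49.3 CPM in fibroblasts and 13.3 in sustentacular cells. Some genes called highest lay below at least 1 of these levels, such as *Epha10* at 25.9 CPM and *Epha4* at 7.55 in chromaffin and transitioning cells. For such genes the call does not show that a compartment without UMIs was lower. Of the 58 genes, 15 were highest in the endothelial compartment, 7 in chromaffin and transitioning cells, 6 in sustentacular cells, 2 in the cortex, 1 in fibroblasts and 0 in immune cells, and 27 could not be separated. Over all 14986 genes with at least 20 UMIs the percentages were 6.9 for endothelial, 10.3 for chromaffin and transitioning, 2.9 for sustentacular, 9.78 for cortex, 1.73 for fibroblast, 5.37 for immune and 63 for not separated. The endothelial share among the axon guidance genes was thus 25.9% and the sustentacular share 10.3%, while the chromaffin share of 12.1% was near that of all genes and the cortex share of 3.45% below it. Of the 6 sustentacular genes, *Ephb3* rested on 3 UMIs there, a level of 13.3 CPM (ratio to the next 8.23, interval 1.56 to 27.9). The 45 fibroblast-like cells held only 60804 UMIs, so that their upper limits were wide. Without them 20 genes were highest in the endothelial compartment, 9 in chromaffin and transitioning cells, 7 in sustentacular cells and 3 in the cortex, against 10.5%, 13.3%, 4.72% and 12.8% of all genes.

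The noradrenaline and adrenaline chromaffin-like cells, the 2 endocrine types of the medulla, differed in several of these genes. Of 38 genes with at least 20 UMIs in both classes together, 8 were at least 2-fold higher in noradrenaline cells and 6 at least 2-fold lower, each with an interval without 1. Over all 11571 genes the share was 5.41% in the first direction and 5.44% in the second. The median ratio was 1.07 for the axon guidance genes and 0.995 for all genes. Those higher in noradrenaline cells were *Sema6a*, *Epha5*, *Robo2*, *Slit2*, *Slit3*, *Robo1*, *Plxna3* and *Plxna2*, and those lower were *Sema5a*, *Epha10*, *Sema4f*, *Efnb3*, *Plxna1* and *Nrp1*.

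*Epha5* (ENSMUSG00000029245), a receptor for ephrin-A ligands, lies on the minus strand of chromosome 5 at chr5:84054761-84417382 (mm10). Its level was 751 CPM in noradrenaline cells (interval 706 to 799) and 102 in adrenaline cells (94.4 to 109), a ratio of 7.39 (6.72 to 8.14). It was seen in 74.2% of noradrenaline cells and in 26.3% of adrenaline cells. After each cell was thinned to 1000 UMIs these shares were 47.7% and 7.91%. Capillary endothelial-like cells, with a median of 1830 UMIs against 2680 and 3165.5, gave 0.340%, and their level of 1.96 CPM lay at the background of 2.04. The level was 646 in transitioning noradrenaline-like cells (610 to 684) and 116 in transitioning adrenaline-like cells (92.5 to 145), so that both noradrenaline classes lay above both adrenaline classes with no overlap of intervals. Within the adrenaline cells, the 3 clusters had levels of 91.1, 107 and 88.3, which all lay far below the noradrenaline level. Cycling chromaffin-like cells had 168 (136 to 204). In the cortex *Epha5* was at 10.6 in inner cells and at most 8.12 in the other classes. Fibroblast-like cells had 115, from 7 UMIs in 2 cells.

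*Sema5a* (ENSMUSG00000022231), a membrane semaphorin with thrombospondin repeats, had the opposite distribution. It lies on the plus strand of chromosome 15 at chr15:32244810-32696341. Adrenaline cells had 103 CPM (95.6 to 110) from 749 UMIs and noradrenaline cells 5.16 (2.08 to 10.6) from 7 UMIs, which made the adrenaline level 19.9 times as high (9.61 to 49.7). The gene was seen in 29.9% of adrenaline and 1.52% of noradrenaline cells, or 9.19% and 0.268% after thinning, and no macrophage-like cell had a UMI of it. Transitioning adrenaline-like cells had 128 and transitioning noradrenaline-like cells 13.9. *Sema5a* was not particular to adrenaline cells, since capillary endothelial-like cells had 83.6 (74.4 to 93.7) and outer cortex 71.3 (51.6 to 96).

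The regions just upstream of the RefSeq start sites of these 2 genes are shown because their levels differed in opposite directions between the same cells. Sequences are from GRCm38.p6, which is the mm10 build, on the gene's own strand, and stop at or before the annotated transcript. The region of *Epha5* is chr5:84417383-84417632 on the minus strand, with capitals for TAATTA, a core that many homeodomain proteins bind, 230 bases before the start. The region of *Sema5a* is chr15:32244563-32244809 on the plus strand, with capitals for AAGGTCA, a half-site of several nuclear receptors, 140 bases before the start.
*Epha5*: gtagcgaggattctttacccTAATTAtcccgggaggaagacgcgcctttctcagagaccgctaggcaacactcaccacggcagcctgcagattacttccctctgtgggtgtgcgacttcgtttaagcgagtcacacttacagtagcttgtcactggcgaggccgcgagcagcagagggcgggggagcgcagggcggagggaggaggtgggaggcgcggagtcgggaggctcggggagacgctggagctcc
*Sema5a*: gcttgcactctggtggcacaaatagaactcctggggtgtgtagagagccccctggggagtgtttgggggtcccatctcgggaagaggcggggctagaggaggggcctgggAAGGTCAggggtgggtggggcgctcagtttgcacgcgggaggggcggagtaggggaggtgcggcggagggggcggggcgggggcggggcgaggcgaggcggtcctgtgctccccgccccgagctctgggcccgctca
Both strands of 250 bases before each start were searched. TAATTA, which is its own reverse complement, was in 4.84% of 32851 RefSeq promoters and in those of 3 of the 56 axon guidance genes that have one in the table. AAGGTCA or its complement TGACCTT was in 4.08% of promoters and in those of 3 of the 56. The motifs were chosen after the sequences were seen, and a match is no evidence of binding.

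The Slit ligands and *Robo2* differed in the same direction as *Epha5*. *Robo2*, a Slit receptor, was at 67.9 CPM in noradrenaline cells (54.7 to 83.3) and at 12.8 in adrenaline cells (10.3 to 15.6), a ratio of 5.32 (3.94 to 7.17). *Slit2* was at 35.4 and 6.73, a ratio of 5.26 (3.46 to 8.0), and *Slit3* at 30.3 and 9.75, a ratio of 3.10 (2.06 to 4.62). Ligands and receptor of this pair were thus all higher in the same class of cells. *Robo1*, whose highest levels were in the cortex, was low in both, at 6.64 from 9 UMIs and 2.20 from 16 UMIs (ratio 3.02, interval 1.18 to 7.27). *Sema6a*, a membrane semaphorin, was at 16.2 from 22 UMIs against 2.06 from 15 UMIs, a ratio of 7.88 (3.91 to 16.3). Among plexins, which are the semaphorin receptors, *Plxna3* was at 16.2 against 6.31 (ratio 2.57, interval 1.47 to 4.36) and *Plxna2* at 8.85 against 3.84 (ratio 2.30, interval 1.07 to 4.68).

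On the adrenaline side, *Epha10*, an Eph receptor without an active kinase, was at 36.8 CPM (32.5 to 41.5) and at 3.69 in noradrenaline cells (1.20 to 8.61), 9.97 times as high. *Sema4f* had 41 UMIs in adrenaline and 1 in noradrenaline cells, a ratio of 7.63 (1.29 to 309). *Efnb3*, an ephrin-B ligand, was 5.95 times as high in adrenaline cells (1.58 to 50.2). *Plxna1* had 45 UMIs in adrenaline cells and none in noradrenaline cells, so it was at least 2.79-fold higher, against a floor of 3 UMIs. *Nrp1* was at 16.3 against 6.64 and 2.46 times as high (1.25 to 5.51). The following 3 genes with large counts missed the 2-fold limit with intervals that left out 1. *Nrp2*, a receptor for secreted semaphorins, was at 79.8 in adrenaline and 41.3 in noradrenaline cells (ratio 0.518, interval 0.387 to 0.682). *Unc5c*, a netrin receptor, was at 40.1 and 73.8 (ratio 1.84, interval 1.45 to 2.32), and *Efna5*, an ephrin-A ligand, at 26.8 and 48.7 (ratio 1.82, interval 1.35 to 2.42).

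The transitioning-like cells were compared in the same way, a comparison added after the classes were seen. Of 27 genes with enough UMIs, 6 were at least 2-fold higher in transitioning noradrenaline-like than in transitioning adrenaline-like cells and 4 lower, against 4.92% and 3.62% of all genes. The median ratio was 1.30 for the axon guidance genes and 1.01 for all genes. The 6 were *Epha4*, *Epha5*, *Sema6a*, *Robo2*, *Slit2* and *Slit3*, and the 4 were *Sema5a*, *Epha10*, *Plxna4* and *Efnb3*. *Epha5*, *Sema6a*, *Robo2*, *Slit2*, *Slit3*, *Sema5a*, *Epha10* and *Efnb3* were apart in the same direction in the chromaffin-like cells. Those are different cells of the same library, but *Pnmt* alone split both pairs, so the match is no independent check. Each of the 7 chromaffin markers was also found in at least 74% of cells in both transitioning classes. The part of chromaffin RNA in the match was not tested. *Plxna4* was at 41.7 CPM in transitioning adrenaline-like cells (27.9 to 59.9) and 13.4 in transitioning noradrenaline-like cells (8.67 to 19.8), a difference not seen between the chromaffin-like classes, where it was at 19.6 and 25.1. *Epha4* rested on 1 UMI in transitioning adrenaline-like cells and 19 in transitioning noradrenaline-like cells (ratio 7.08, interval 1.13 to 294). *Nrp1* and *Plxna3*, apart in the chromaffin-like cells, were not apart here.

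**Figure D2:**
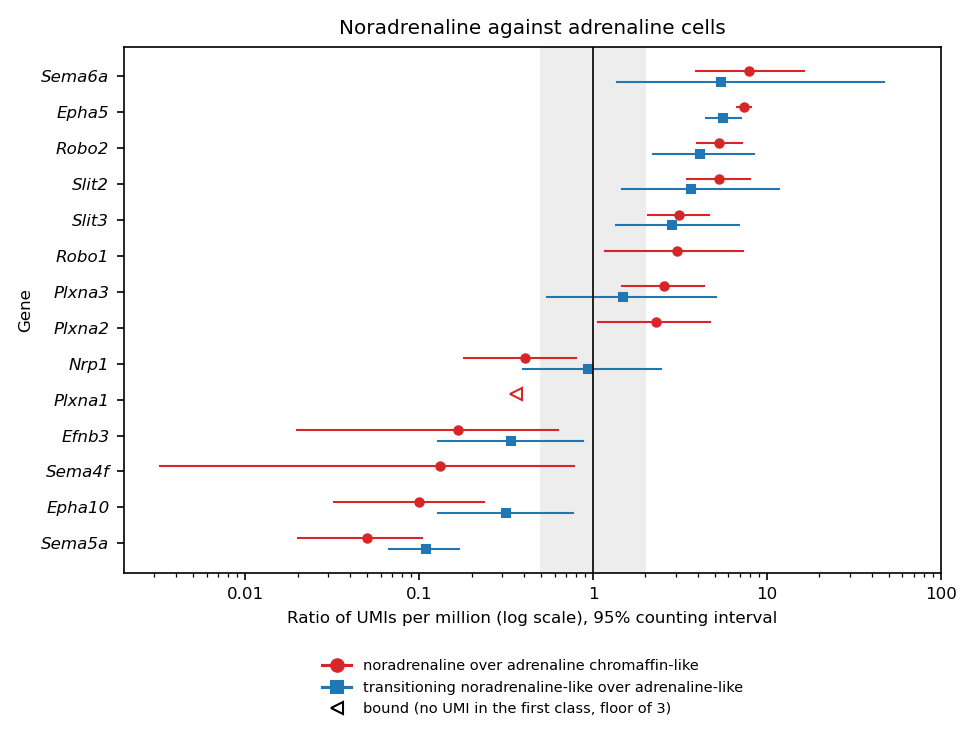
Ratio of the level in noradrenaline to that in adrenaline cells (log axis, with 95% counting intervals) for the 14 genes at least 2-fold apart between the chromaffin-like classes (red circles), and for the same genes between the transitioning classes (blue squares) where they had at least 20 UMIs, which *Robo1*, *Plxna2*, *Plxna1* and *Sema4f* did not. The grey band spans ratios under 2-fold, and the open triangle is a bound for *Plxna1*, which had no UMI in noradrenaline cells. *Epha5* and *Robo2* lie right of the band and *Sema5a* left of it in both pairs.

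Adrenaline chromaffin-like cells were not uniform in depth, and their 2 largest clusters, of 799 and 740 cells, were compared in these genes. Of 35 genes tested, 2 were at least 2-fold higher in the deeper cluster and 0 lower, against 3.22% and 0.368% of all genes. *Epha4* was at 8.44 CPM against 3.14 (ratio 2.69, interval 1.14 to 7.74) and *Epha7*, another ephrin-A receptor, at 18.3 against 8.90 (ratio 2.06, interval 1.22 to 3.68). The median ratio was 1.15 over all genes and 1.53 over the axon guidance genes. Divided by the median ratio of all genes, *Epha4* was at 2.33 with an interval that then included 1, and *Epha7* at 1.78, and the part that depth plays was not tested.

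Sustentacular-like cells, the glia-like supporting cells of the medulla, carried secreted semaphorins. Against adrenaline and noradrenaline chromaffin-like cells together, 8 of 41 genes were at least 2-fold higher and 5 lower, beside 10.8% and 8.69% of all genes. The sustentacular-like cells had no UMI of 15 of the 41 genes, so the median ratio was 1.85 with these at their bound of 3 UMIs and 0.596 with them at 0, against 1.07 and 0.838 for all genes. Those higher, in order, were *Sema3b*, *Sema3c*, *Plxnb1*, *Efna2*, *Ephb6*, *Sema6d*, *Ephb2* and *Plxnd1*, and those lower were *Nrp2*, *Unc5c*, *Sema5a*, *Epha5* and *Epha10*. The 177 cells held 226325 UMIs with a median of 1142, against medians of 3165.5 in adrenaline and 2680 in noradrenaline cells, and 1 UMI corresponds to 4.42 CPM. Of 6 fibroblast markers 3 were detected in at least 25% of the sustentacular-like cells and 3 were at 0, and the list summed to 2214 CPM there, against 4.67 in adrenaline, 8.85 in noradrenaline and 6891 in fibroblast-like cells. *Col3a1* and *Fbln5* were among the 10 leading genes of the class, and the part of these markers in the values was not tested.

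*Sema3b*, a secreted ligand of neuropilins, had 52 UMIs in sustentacular-like cells, a level of 230 CPM (172 to 301), and 2 UMIs in the chromaffin-like cells (ratio 993, interval 261 to 8412). *Sema3c*, which also binds neuropilins, had 50 UMIs and a level of 221 (164 to 291), against 18 UMIs and 2.08 in the chromaffin-like cells (ratio 106, interval 60.8 to 193). *Sema3b* was seen in 26.6% and *Sema3c* in 22.0% of sustentacular-like cells, or both in 20.7% after thinning, which left out 56 of the 177 cells. Capillary endothelial-like cells had 0 UMIs of either, where 3 UMIs would be 0.842 CPM. With the transitioning cells counted as chromaffin-like the ratios were 30.6 for *Sema3b* and 18.2 for *Sema3c*. The transitioning classes lay between sustentacular-like and chromaffin-like cells for both genes, but they were named for meeting both marker lists. The 11 sustentacular markers had the same order, summing to 6672 CPM in sustentacular-like cells. They summed to 1150 in transitioning noradrenaline-like, 766 in transitioning adrenaline-like, 60.5 in noradrenaline and 16.1 in adrenaline cells. Median UMIs were 4634 and 6511 in the transitioning classes, and the part of these markers in the values was not tested. *Sema3b* was at 35.9 in transitioning noradrenaline-like and 21.6 in transitioning adrenaline-like cells, and *Sema3c* at 49.8 and 35.9. Noradrenaline chromaffin-like cells had *Sema3c* at 11.1 (6.19 to 18.3) and adrenaline cells at 0.412 (0.0849 to 1.20), while *Sema3b* stood at 1 UMI in each. *Sema3d*, also secreted, had 10 UMIs and a level of 44.2 (21.2 to 81.3) in sustentacular-like cells and 65.3 (39.9 to 101) in *Mgp*-high endothelial-like cells, which did not differ beyond their intervals.

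Of the plexins, *Plxnb1* was at 79.5 CPM in sustentacular-like cells (47.1 to 126) and *Plxnb3* at 39.8 (18.2 to 75.5), both from cells with 1 UMI each, 18 and 9 in number. *Plxnb1* was 13.5 times as high as in chromaffin-like cells (7.41 to 23.5) and was also found in the cortex, where fasciculata-like cells had 47.2 (40.9 to 54.2). *Plxnb3* was next highest in immune cells among the 6 compartments, at 2.87, with a ratio of 13.9 (3.46 to 79.6). *Ephb2*, a receptor for ephrin-B ligands, was at 30.9 against 8.68 in chromaffin-like cells (ratio 3.56, interval 1.39 to 7.71). *Efna2* rested on 3 UMIs and *Ephb6* on 4. The neuropilins that bind *Sema3b* and *Sema3c* were near their limit of detection in the same cells, with 2 UMIs of *Nrp1* and 1 of *Nrp2*, levels of 8.84 and 4.42. The background level in this class, estimated from 8 chromaffin and cortex genes, was 6.52% of the library-wide level (range over the genes 1.58% to 33.6%), which comes to 8.57 for *Nrp1* and 5.44 for *Nrp2*, so *Nrp2* is read as background and *Nrp1* sat at the limit.

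*Epha5* was at 39.8 CPM in sustentacular-like cells, but from 9 UMIs in 5 cells, with 5.32 as the background level. The 7 chromaffin markers summed to 2978 CPM in these cells, against 82799.6 in adrenaline and 74492 in noradrenaline cells, and the part of chromaffin RNA in this value was not tested.

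**Figure D3:**
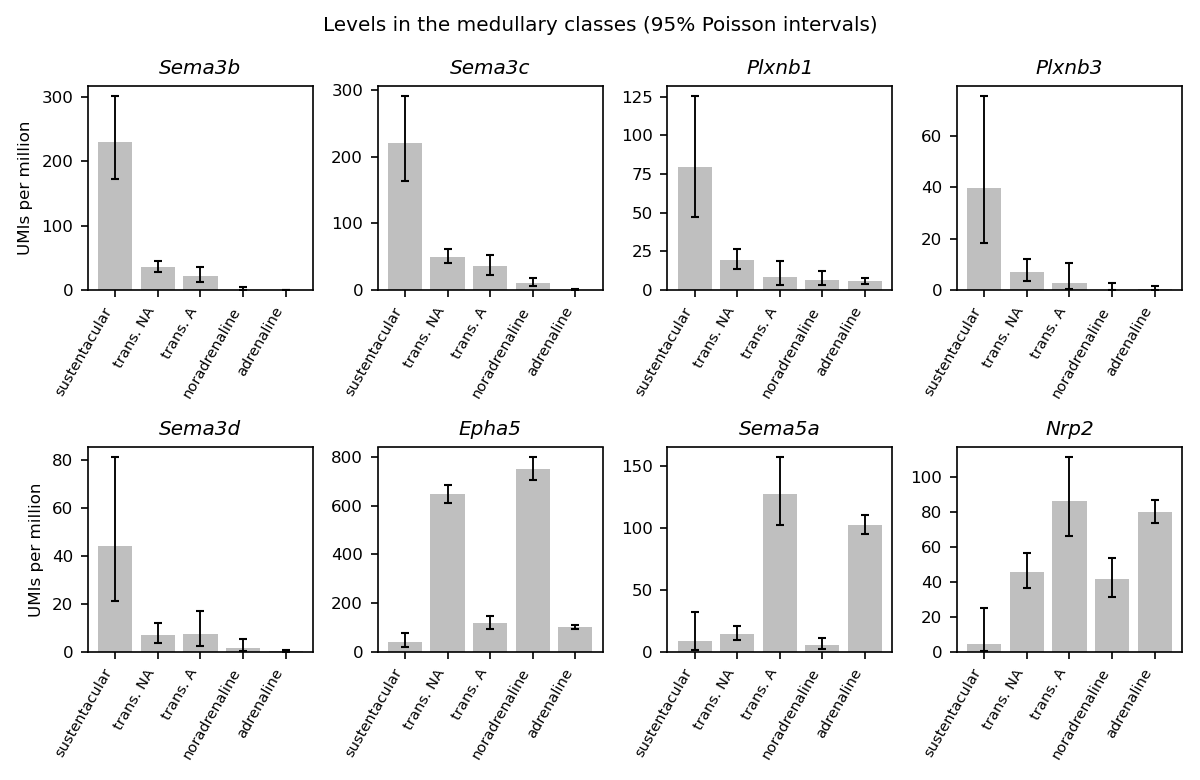
Levels of 8 axon guidance genes in the 5 non-cycling medullary classes, in CPM. Bars start at 0 and the lines are 95% Poisson intervals for counting error, with trans. NA and trans. A standing for the transitioning noradrenaline-like and adrenaline-like cells. *Sema3b* and *Sema3c* are highest in sustentacular-like cells, *Epha5* in the noradrenaline classes and *Sema5a* in the adrenaline classes.

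The endothelial compartment was called highest for 15 of these genes. Between endothelial-like cells (capillary and *Mgp*-high) and chromaffin-like cells, 22 of 49 genes were at least 2-fold higher in the endothelium and 20 lower, and 7 were not apart. Over all genes the shares were 20.8% and 25.5%, and the median ratios were 0.921 for the axon guidance genes and 0.973 for all. The receptors *Nrp1* and *Nrp2* were at 500 and 448 CPM in the endothelium, 33.7 times (28.2 to 40.7) and 6.08 times (5.55 to 6.67) the chromaffin level. *Plxnd1*, a plexin known for its part in vessel patterning, was at 385 against 14.1, a ratio of 27.3 (22.7 to 33.1), and *Plxna2* at 81.4 against 4.63, a ratio of 17.6 (12.6 to 25.1). *Robo4*, the endothelial Robo, was at 101 from 392 UMIs, with 1 UMI in the chromaffin-like cells. All 3 endothelial classes had it, at 103 in capillary, 84.8 in *Mgp*-high and 90.6 in cycling cells, with overlapping intervals.

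Semaphorins of several classes accompanied these receptors. *Sema3f*, secreted and bound by neuropilins, was at 97.4 CPM with 2 UMIs in the chromaffin-like cells. The membrane semaphorins *Sema6a* (191 against 4.28, ratio 44.6), *Sema4c* (83.2 against 3.70, ratio 22.5), *Sema6d* (114 against 8.22, ratio 13.9) and *Sema6b* (24.5 against 3.59, ratio 6.84) were higher too, with intervals wholly above 4. *Sema7a*, which is anchored by a lipid, was at 24.8 with 1 chromaffin UMI. *Sema3d*, *Sema3g* and *Sema3a* were at 16.5, 10.9 and 13.2, with 3, 5 and 0 UMIs in chromaffin-like cells, *Sema3a* being at least 38.0-fold higher.

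Ephrins and Eph receptors were also split between the tissues. *Efnb2* was at 156 CPM against 3.70 (ratio 42.2, interval 29.6 to 62.3), *Efna1* at 103 against 3.01 (ratio 34.2, interval 23.0 to 53.0) and *Efnb1* at 120 against 12.8 (ratio 9.33, interval 7.57 to 11.6). *Ephb4*, the ephrin-B receptor of veins in textbooks, was at 55.0 with 1 chromaffin UMI, and *Ephb1* at 29.2 with none, at least 84.1-fold higher. *Epha2* and the antisense *Plxna4os1* were at 8.01 and 9.04 with none, at least 23.1-fold and 26.0-fold higher. *Unc5b* was at 17.1 against 7.18 (ratio 2.38, interval 1.65 to 3.42).

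On the chromaffin side of this comparison were 7 Eph receptors among others. *Epha5* was at 203 CPM in chromaffin-like and 1.81 in endothelial-like cells, 112 times as high (54.5 to 280). *Epha10* with 273 UMIs, *Ephb2* with 75 and *Epha8* with 24 had no endothelial UMI and were at least 40.8-fold, 11.2-fold and 3.58-fold higher. *Epha7* had 129 UMIs against 1, *Ephb6* 33 against 1 and *Epha4* 62 against 13. *Efna5* (29.2 times as high), *Robo2* (41.4), *Unc5c* (7.32), *Unc5a* (32.3), *Slit2* (43.5), *Sema4d* (69.9), *Sema4f* (18.8), *Sema6c* (8.06), *Sema4b* (3.40), *Efnb3* (9.85), *Plxna3* (10.2), *Efna2* (8.51) and *Plxnb1* (2.08) made up the rest. *Unc5a*, *Slit2*, *Sema4d*, *Sema4f* and *Efna2* rested on 1 endothelial UMI each. The endothelial-like group held 3563563 UMIs of capillary and 306506 of *Mgp*-high cells, so its values mainly describe capillary cells. *Mgp*-high cells alone had *Epha4* at 22.8 CPM, against 7.55 in chromaffin and transitioning cells together. It was not separated there from cycling chromaffin-like cells at 11.9. The *Unc5c* level of *Mgp*-high cells, given below, lay between those of adrenaline and noradrenaline cells.

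The region upstream of *Plxnd1* (ENSMUSG00000030123, chr6:115954811-115995005, minus strand) is shown as an example from the vessels, at chr6:115995006-115995255 on the minus strand of GRCm38.p6, with capitals for CAGGAA, which holds the GGAA core bound by ETS factors, 157 and 150 bases before the start.
*Plxnd1*: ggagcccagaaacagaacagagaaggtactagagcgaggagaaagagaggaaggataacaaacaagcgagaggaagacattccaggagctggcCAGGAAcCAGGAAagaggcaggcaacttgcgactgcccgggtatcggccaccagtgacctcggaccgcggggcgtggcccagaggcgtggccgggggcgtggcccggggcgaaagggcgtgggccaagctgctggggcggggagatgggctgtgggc
CAGGAA or its complement TTCCTG was in 25.7% of the 32851 promoters and in 14 of the 56 axon guidance genes with one, so the motif is common and its presence here is a description only.

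**Figure D4:**
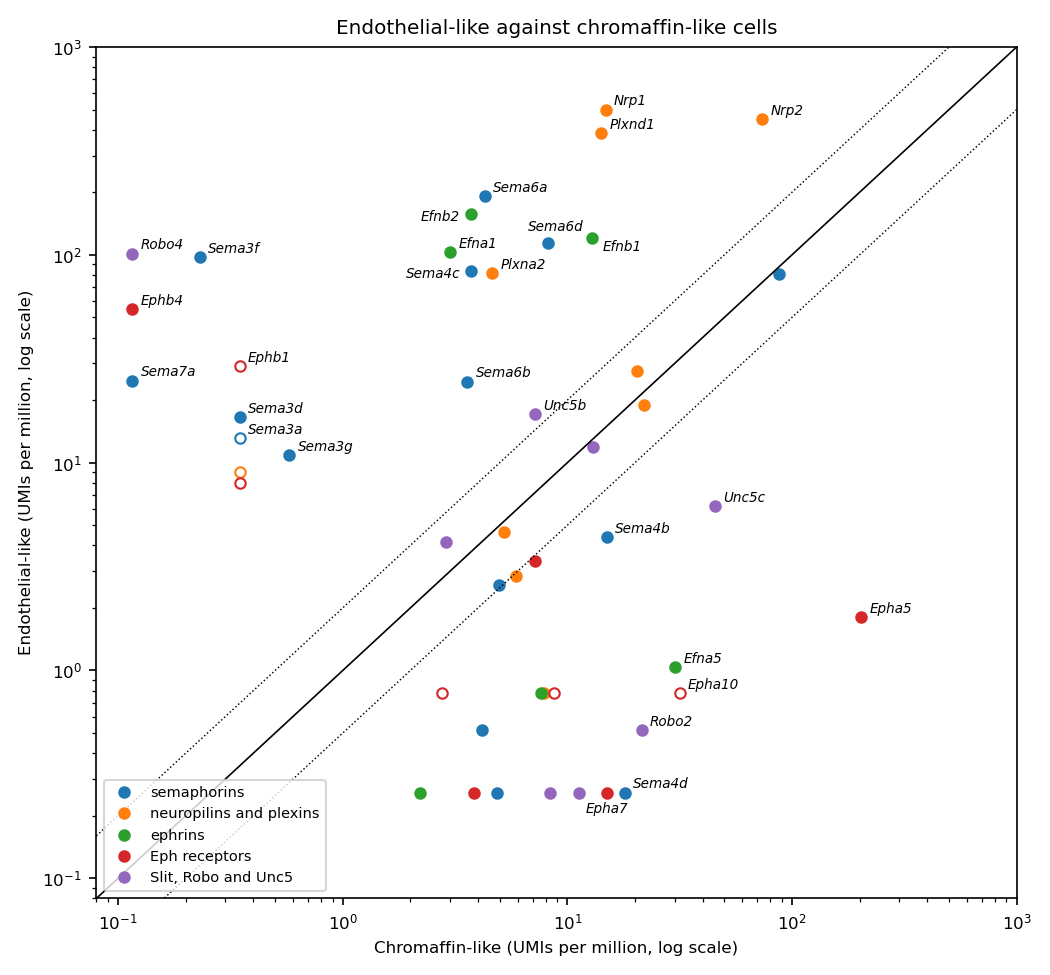
Level in endothelial-like (vertical) against chromaffin-like cells (horizontal) for the 49 axon guidance genes with at least 20 UMIs in both together, in CPM on log axes. The solid line marks equal levels and the dotted lines 2-fold, open symbols are genes with no UMI in one group drawn at the floor of 3 UMIs, and names are given to most genes apart with a level of at least 10. *Nrp1*, *Nrp2*, *Plxnd1* and *Robo4* lie above the lines and *Epha5*, *Epha10* and *Robo2* below.

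Within the endothelium, the *Mgp*-high cells (186 cells) were compared with capillary cells (1469 cells), also after the classes were seen. Of 27 genes, 4 were at least 2-fold higher in *Mgp*-high cells and 4 lower, beside 3.68% and 2.25% of all genes, with median ratios of 0.894 and 1.00. *Unc5c* was at 45.7 CPM (25 to 76.6) from 14 UMIs against 2.81, a ratio of 16.3 (6.72 to 41.0). *Sema3a*, a secreted semaphorin, was at 58.7 against 9.26 (ratio 6.34, interval 3.36 to 11.6), *Sema3d* at 65.3 against 12.3 (ratio 5.28, interval 2.95 to 9.16) and *Slit3* at 39.2 against 9.54 (ratio 4.10, interval 1.93 to 8.12). The 4 that were lower were *Ephb1* (6.53 against 31.1), *Efnb2* (55.5 against 165), *Sema7a*, which had no UMI and was at least 2.75-fold lower, and *Efnb1* (62.0 against 125). Of the lymphatic markers, 1 of 5 was in at least 25% of the *Mgp*-high cells, as in the capillary cells. The list summed to 1246 CPM in *Mgp*-high and 398 in capillary cells. *Lyve1*, which is in the list, was among the leading genes of the *Mgp*-high class. The arterial list, whose name no cluster carried, summed to 228 CPM in *Mgp*-high and 64.0 in capillary cells. Its most frequent marker was in 24.7% and 10.6% of the cells. The part of either list in these values was not tested. *Ephb4* was higher in *Mgp*-high than in capillary cells, at 88.1 and 52.2, with a ratio of 1.69 (1.08 to 2.54) that stayed under 2-fold, so that the ephrin *Efnb2* and its receptor *Ephb4* leaned opposite ways between the classes. The 2 capillary clusters of 817 and 652 cells had *Nrp1* at 558 and 378 and *Plxnd1* at 434 and 259, the second being the shallower.

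In the cortex the classes named as outer and inner were compared. Outer against inner cortex-like cells had 4 of 23 genes at least 2-fold higher and 4 lower, beside 14.8% and 9.83% of all genes, so that the first share of 17.4% was near the background. Their median ratio was 1.17, against 1.09 for all genes. *Slit3*, a secreted ligand, was at 44.8 CPM in outer cortex (29.5 to 65.1) and at 0.640 in inner cortex (ratio 69.9, interval 29.7 to 190). *Sema5a* was at 71.3 against 2.29 (ratio 31.2, interval 18.6 to 53.3), *Efnb1* at 38.1 against 8.51 (ratio 4.48, interval 2.71 to 7.14) and *Plxnd1* at 28.2 against 8.23 (ratio 3.42, interval 1.91 to 5.79). The 3 inner cortex clusters were not alike in *Sema5a*, at 0.752, 1.30 and 8.99, though all lay below the outer level. *Slit2* ran the other way, with 0 UMIs in outer cortex and 21.4 in inner cortex, at least 4.30-fold lower in the outer cells, so that *Slit2* and *Slit3* were highest in opposite zones.

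*Nrp1* (ENSMUSG00000025810) was at 170 CPM in inner cortex (163 to 178), 28.2 in outer cortex, 3.69 in *Wnt4*+ *Cyp11b1*+ and 24.3 in fasciculata-like cells. It was seen in 52.3% of inner cortex cells and in 8.66% of fasciculata-like cells, or in 14.9% and 0.881% after thinning, against 2.27% of noradrenaline cells before it. The 3 inner cortex clusters had it at 196, 163 and 109, all above the other zones. *Robo1* (ENSMUSG00000022883), a Slit receptor, was at 149 in fasciculata-like cells (138 to 161), 96.7 in *Wnt4*+ *Cyp11b1*+ cells (85.9 to 109), 80.6 in inner cortex (75.4 to 86.1) and 38.1 in outer cortex (24.2 to 57.2). Its next highest compartment, without the fibroblast-like cells, was sustentacular, where 1 UMI was counted. *Plxna1* was at 27.1 in inner cortex and 8.29 in outer cortex, where it rested on 5 UMIs (3.27 times as high, interval 1.38 to 10.1).

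Between fasciculata-like and inner cortex-like cells, a comparison added after the classes were seen, 6 of 27 genes were at least 2-fold higher and 4 lower, beside 8.53% and 6.44% of all genes, with median ratios of 1.39 and 1.03. The higher were *Sema3b* (17 UMIs against 3), *Sema5b*, *Epha2* (20 against 4), *Efnb1*, *Epha7* and *Sema4b*. *Sema5b*, a membrane semaphorin, was at 27.4 CPM (22.6 to 32.8) against 2.10 (1.33 to 3.16), a ratio of 13.0 (8.26 to 21.3), and was not counted in any chromaffin, transitioning, sustentacular, fibroblast-like or immune class. The lower were *Nrp1* (7.01 times as high in inner cortex, interval 5.75 to 8.63), *Slit2* (4.78 times), *Epha5* (3.75 times) and *Sema4d* (3.0 times). The size of the *Nrp1* difference depended on the processing. As a ratio of fasciculata-like to inner cortex it was 0.0527 without doublet calls and 0.0809 with 30 principal components. With the mean over cells it was 0.110, and all of these lay outside the main interval. Doublet calls made up 3.38% of fasciculata-like and 0.612% of inner cortex cells.

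**Figure D5:**
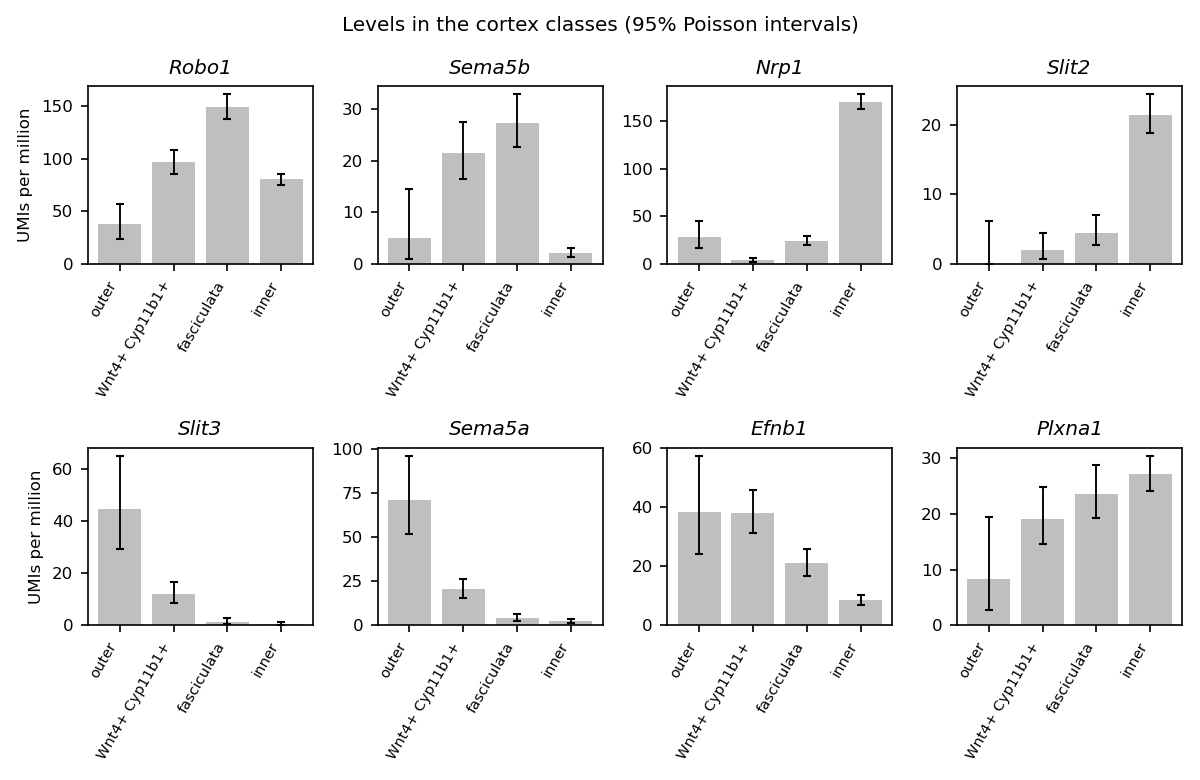
Levels of 8 axon guidance genes in the 4 non-cycling cortex classes, in CPM. The classes are ordered from outer to inner by their marker-based names, and position in the gland was not measured. Bars start at 0 and the lines are 95% Poisson intervals for counting error. *Nrp1* and *Slit2* are highest in inner cortex, *Slit3* and *Sema5a* in outer cortex and *Robo1* in fasciculata-like cells, while *Sema5b* overlaps between fasciculata-like and *Wnt4*+ *Cyp11b1*+ cells.

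The endocrine tissues were also set against each other as wholes. Of 46 genes, 25 were at least 2-fold higher in chromaffin-like than in cortex-like cells and 11 lower, beside 26% and 19.7% of all genes, and the median ratio was 2.59 against 1.07. *Epha10* (198 times as high from 273 UMIs against 3), *Unc5a* (72 UMIs against 1), *Efnb3* (66 against 1), *Robo2* (185 against 4), *Unc5c* (56.7 times, interval 34.0 to 102), *Unc5b* (62 UMIs against 3), *Plxna4* (42.7 times), *Epha5* (27.6 times, interval 23.2 to 33.1) and *Nrp2* (20.3 times, interval 15.8 to 26.5) led the chromaffin side. *Epha8*, with 24 UMIs and none in the cortex, was at least 17.4-fold higher. *Sema4f*, *Sema5a*, *Sema6d*, *Sema6a*, *Epha4*, *Ephb2*, *Sema6b*, *Sema6c*, *Plxna3*, *Efna1*, *Slit3*, *Plxna2*, *Sema4d*, *Epha7* and *Sema4g* followed with ratios from 13.0 down to 2.22. The cortex side held *Ephb4* (104 UMIs against 1), *Robo1* (33.6 times as high, interval 22.7 to 52.1), *Sema5b* (206 UMIs against 0, at least 31.6-fold), *Efna4*, *Nrp1* (7.17 times), *Plxnb1* (6.67 times), *Sema3b*, *Epha2*, *Plxna1* (4.69 times), *Sema3a* and *Ephb6* (3.10 times). *Efna4* had 24 UMIs in the cortex against 1, *Sema3b* 26 against 2, *Epha2* 34 against 0 and *Sema3a* 21 against 0.

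Each of the 43 genes with at least 100 UMIs was also placed by its highest and next highest class, leaving out the fibroblast-like and lymphocyte-like classes of under 50 cells. Neighbours in this order often did not differ beyond their intervals. Capillary endothelial-like cells were highest and cycling endothelial-like cells next for *Nrp1* (515 against 364, ratio 1.42), *Nrp2* (ratio 1.18), *Plxnd1* (393 against 347, ratio 1.13), *Efnb2* (ratio 1.37), *Efnb1* (ratio 1.44), *Efna1* (ratio 1.32) and *Sema7a* (ratio 1.51), all with intervals above 1. For *Robo4* (ratio 1.13), *Ephb1* (ratio 1.06) and *Unc5b* (ratio 1.17) the same classes could not be separated, nor could capillary from *Mgp*-high cells for *Sema6d* (ratio 1.37). *Mgp*-high cells were highest and capillary cells next, without separation, for *Sema6a* (222 against 188), *Sema3f* (104 against 96.8), *Sema4c* (88.1 against 82.8), *Plxna2* (88.1 against 80.8) and *Sema6b* (26.1 against 24.4). *Plxna4* in these cells, at 45.7, could not be told from transitioning adrenaline-like cells at 41.7, nor *Epha4*, at 22.8, from cycling chromaffin-like cells at 11.9.

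In the medulla *Epha5* was highest in noradrenaline cells and next in transitioning noradrenaline-like cells (ratio 1.16, interval 1.07 to 1.26), and *Epha10* in adrenaline and then transitioning adrenaline-like cells (ratio 1.97, interval 1.13 to 3.75). *Sema5a* in transitioning adrenaline-like and adrenaline cells (ratio 1.24) and *Epha7* in the transitioning adrenaline-like and noradrenaline-like cells (ratio 1.30) were not separated. Noradrenaline and transitioning noradrenaline-like cells were the top pair, without separation, for *Robo2* (ratio 1.05), *Efna5* (ratio 1.18), *Slit2* (ratio 1.35) and *Plxna3* (ratio 1.51), and in the reverse order for *Sema4g* (ratio 1.27). Sustentacular-like cells stood above transitioning noradrenaline-like cells for *Sema3b* (ratio 6.40, interval 4.37 to 9.33) and *Sema3c* (ratio 4.43, interval 3.08 to 6.32). They were highest without separation for *Plxnb1* (next fasciculata-like, ratio 1.69), *Ephb2* (next transitioning adrenaline-like, ratio 1.96), *Ephb6* (next inner cortex, ratio 1.31), *Efna2* (next cycling cortex, ratio 2.45) and *Plxnb2* (next macrophage-like, ratio 1.21). In the cortex fasciculata-like cells stood above *Wnt4*+ *Cyp11b1*+ cells for *Robo1* (ratio 1.54, interval 1.34 to 1.78) but not for *Sema5b* (ratio 1.27, interval 0.931 to 1.76). *Plxna1* (inner over cycling cortex, ratio 1.06), *Sema4b* (*Wnt4*+ *Cyp11b1*+ cortex over sustentacular-like, ratio 1.18) and *Slit3* (outer cortex over *Mgp*-high, ratio 1.14) were not separated either. *Plxnb2* was found in all classes but the lymphocyte-like cells, at 18.2 to 82.2 CPM.

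*Sema4d*, a membrane semaphorin of immune cells in textbooks, was at 32.5 CPM in macrophage-like cells (22.2 to 45.8, next sustentacular-like cells at 26.5) and at 84.0 in lymphocyte-like cells from 5 UMIs (27.3 to 196), while adrenaline chromaffin-like cells had 18.4. Macrophage-like cells also had *Nrp1* at 103 (84.4 to 126) and *Sema6d* at 55.8. Fibroblast-like cells had *Nrp1* at 444 (293 to 646), next to the endothelial compartment at 457 (ratio 1.03, interval 0.705 to 1.56). *Epha3*, an ephrin-A receptor, had 6 of its 25 UMIs in the 45 fibroblast-like cells, a level of 98.7 (36.2 to 215). It was the 1 gene called highest there, with the endothelial compartment next at 1.59. Within that compartment the level was not even, and *Mgp*-high cells alone had *Epha3* at 19.6. In the fibroblast-like cells 1 of 7 mural markers was found in at least 25% of cells. The mural list summed to 1858 CPM there, and its part in their *Epha3* value was not tested.

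Cycling cells were also compared with their non-cycling neighbours. In the chromaffin-like cells 1 of 40 was at least 2-fold higher and 3 lower, in the cortex 1 of 33 higher and 1 lower, and in the endothelium 0 of 29 higher and 2 lower. These are 2.5% and 7.5% for chromaffin-like, 3.03% and 3.03% for cortex-like and 0% and 6.90% for endothelial-like cells. Over all genes the shares were 6.72% and 1.33% for chromaffin-like, 6.96% and 1.97% for cortex-like and 4.52% and 1.92% for endothelial-like cells. The shares of higher genes were thus below those of all genes. The shares of lower genes were above them, though from 3, 1 and 2 genes. The median ratios were 0.909, 1.023 and 0.773 for the axon guidance genes and 1.04, 1.01 and 0.972 for all genes. *Sema3c* was higher in cycling chromaffin-like cells (6 UMIs, ratio 4.88, interval 1.59 to 12.8). The 11 sustentacular markers summed to 154 CPM in these cells, against 16.1 in adrenaline and 60.5 in noradrenaline cells, and their part in this value was not tested. Lower were *Epha10* (ratio 0.429), *Plxna4* (ratio 0.248) and *Efnb1* (ratio 0.264), of which *Efnb1* was at 0.981 when axon guidance genes were kept for clustering. In the cortex *Nrp2* was 2.82 times as high in cycling cells (1.81 to 4.31), or 1.51 times under a stricter filter on cells, and *Sema5b* lower (ratio 0.493). The 7 endothelial markers summed to 62.8 CPM in cycling cortex, against 12.3 to 44.8 in the non-cycling cortex classes. The 7 chromaffin markers summed to 134, against 73.4 to 363. The part of either list in the *Nrp2* value was not tested. In the endothelium *Sema3a* (ratio 0.253) and *Sema3g* (ratio 0.461) were lower in cycling cells, from 6 and 9 UMIs. *Unc5c* had its highest class in cycling chromaffin-like cells at 79.7 and next in noradrenaline cells at 73.8, which could not be separated (ratio 1.08, interval 0.747 to 1.54).

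Ligands and receptors of one family could be set side by side by their highest class, as a description that computes no interaction. The secreted *Sema3b* and *Sema3c* were highest in sustentacular-like cells and *Sema3f* in endothelial-like cells, and both neuropilins were highest in capillary endothelial-like cells, with *Nrp2* also at 79.8 CPM in adrenaline cells and *Nrp1* at 170 in inner cortex. The ephrins *Efna1*, *Efnb1* and *Efnb2* were highest in the endothelium along with *Ephb4* and *Ephb1*, whereas *Epha5* and *Efna5* were both highest in noradrenaline cells. *Slit2* was highest in noradrenaline cells, *Slit3* in outer cortex, *Robo2* in noradrenaline cells, *Robo1* in fasciculata-like cells and *Robo4* in the endothelium. Of these, *Efna5*, *Slit2*, *Slit3* and *Robo2* were not separated from their next class, with ratios of 1.18, 1.35, 1.14 and 1.05.

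A list of 41 partner genes (netrins and their receptors, and effectors of Robos, plexins and Ephs), chosen with earlier results of these data known, gave 32 genes with enough UMIs between noradrenaline and adrenaline cells, of which 3 were at least 2-fold higher and 6 lower, beside 5.41% and 5.44% of all genes. *Dcc*, a netrin receptor, had 1 UMI in noradrenaline and 89 in adrenaline cells, and *Flrt3*, which also binds Unc5 receptors, was at 8.12 CPM against 104. *Dpysl3*, an effector of semaphorin signalling, was higher in noradrenaline cells at 167 against 71.7 (ratio 2.34, interval 1.99 to 2.74). Between endothelial-like and chromaffin-like cells 12 of 35 were higher, led by *Fes* with 60 UMIs against 1 and the kinase *Fyn* (ratio 43.4, interval 31.9 to 60.4), and 10 lower, led by *Grip1* with 1 UMI against 148 and *Srgap3*, with none against 304, beside 20.8% and 25.5% of all genes. Between chromaffin-like and cortex-like cells 20 of 35 were higher and 5 lower, beside 26% and 19.7% of all genes. Between outer and inner cortex 9 of 20 were higher and 0 lower, beside 14.8% and 9.83% of all genes, led by the netrin gene *Ntn4* with 33 UMIs against 3 and *Dpysl2* (ratio 37.1, interval 25.7 to 54.2). In the sustentacular-like cells 7 of 32 were higher than in chromaffin-like cells and 1 lower, beside 10.8% and 8.69% of all genes, with *Fyn* (ratio 14.2, interval 7.47 to 25.7) and *Ntng1* (ratio 13.5, interval 6.14 to 27.7) leading.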

How the data were processed

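Adrenal medullae of wild type mice were profiled by droplet-based single-cell RNA sequencing as 1 library. Per the labels, the submitters' processing notes name Cell Ranger 4.0.0 and the build mm10. The authors deposited UMI counts of 32285 genes in 11214 barcodes, not normalized. A UMI total per cell sets the precision of each share, and a class total that of each level (59516 to 10931390 UMIs).

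From the counts, cells with 500 to 5000 genes and at most 20% mitochondrial UMIs were kept. Clusters were built in Seurat 5.3.0 (R 4.3.3) from 2000 variable features, less 18 axon guidance genes among them, with 10 principal components at resolution 0.4, then again within each lineage. A marker list was met with at least 3 of its markers in 10% to 50% of the cells. The thresholds were set for each list after the data were seen. Some names rested further on a single gene in at least 50% of cells. *Pnmt* alone split adrenaline from noradrenaline names, also in the transitioning classes, and *Penk*, *Cox8b* and *Lix1* were not used. *Mgp* split off the *Mgp*-high cells, and *Wnt4* split *Wnt4*+ *Cyp11b1*+ from fasciculata-like cells. Outer cortex was named by a list with *Cyp11b2*, *Dab2*, *Agtr1b*, *Wnt4*, *Hsd3b6* and *Rspo3*, at 20% of cells. Inner cortex was named by the X-zone list of *Akr1c18*, *Pik3c2g* and *Thrb*, at 10% of cells. Position in the gland was not measured. The remaining endothelial clusters were called capillary without a marker of their own. Doublets were scored with Scrublet in scanpy 1.11.5 and used in an alternative only. UMIs were summed over the cells of a class. Levels have exact Poisson intervals, shares exact Clopper-Pearson intervals and ratios exact conditional binomial intervals (95%, scipy 1.17.1). A zero was set to a floor of 3 UMIs for bounds and in medians, and with zeros at 0 the median over the axon guidance genes changed in 1 comparison, that of sustentacular-like cells. Genes with at least 20 UMIs over both groups together were compared, and at least 2-fold apart needed an interval without 1. Background from free RNA was the median share of the library-wide level kept by 4 chromaffin and 4 cortex genes in classes that should lack them. Genes with at least 100 UMIs were named, those with 20 to 99 where they were apart, and those under 20 by their total. The gene family and the lists were chosen with earlier results of these data known, and members were then taken by symbol. The ratio calculation was tested on simulated data drawn as independent Poisson counts. These follow the model that the intervals assume and leave out differences between the cells of a class. Gene positions are from GENCODE M21 and promoters from RefSeq GRCm38.p6, where 56 of the 67 genes had an entry.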

Additional observations from a re-analysis of the deposited data

How the results depend on the processing

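No paired analysis was possible because there is 1 library, and with no replicates none could be left out. Of 197 counts recomputed under other settings, 158 stayed within 1.5 times the main count and 39 did not. Under the 10 settings that change a value rather than a threshold, 1184 ratios of genes 2-fold apart were recomputed, of which 0 changed direction and 23 left their main interval, 14 of these under the stricter filter. These include 151 ratios that were only divided by the median over all genes, which could not change direction. The others are of genes chosen as apart in the same library, so the kept direction is no independent check. *Efnb1* in cycling chromaffin-like cells was at 0.981 with axon guidance genes kept for clustering, and under the stricter filter *Nrp2* in cycling cortex was at 1.51 and *Sema7a* in *Mgp*-high over capillary cells at 0.649. Counts that moved are given here as genes 2-fold apart in either direction, and the cause was not tested. For these counts neither the number of genes tested nor the share over all genes under each setting is given. They are therefore not set against a background. With 30 principal components they were 1 between the adrenaline clusters and 1 for cycling endothelial-like cells. At resolution 0.2 they were 2 for cycling chromaffin-like and 1 for cycling endothelial-like cells, and at resolution 0.8 it was 4 between the adrenaline clusters. With axon guidance genes kept for clustering it was 4 for cycling cortex. A stricter filter on cells had a minimum of 1000 genes and a limit of 10% on mitochondrial UMIs. Under it they were 2, 4 and 1 for cycling chromaffin-like, cortex and endothelial-like cells. There 17 genes were highest in chromaffin and transitioning cells and 5 in the cortex. The sustentacular and fibroblast compartments were missing under this filter, so these counts are not comparable with the main ones. No share over all genes is given for them. Without doublet calls 1 gene was highest in the cortex. With the mean over cells they were 5 between the adrenaline clusters and 2 for cycling chromaffin-like cells, with 1 gene highest in the cortex and 2 in fibroblasts. With no UMI minimum they were 13 for outer against inner cortex and 5 for cycling cortex. With at least 100 UMIs they were 6 for noradrenaline against adrenaline, 6 for sustentacular-like against chromaffin-like, 1 between the adrenaline clusters, 17 for chromaffin-like against cortex, 24 for endothelial-like against chromaffin-like, 0 for cycling endothelial-like, 3 for *Mgp*-high against capillary and 3 for the transitioning pair, with 4 genes highest in chromaffin and transitioning cells and 0 in fibroblasts. At 1.5-fold it was 8 between the adrenaline clusters. At 4-fold they were 8 for noradrenaline against adrenaline, 0 between the adrenaline clusters, 5 for outer against inner cortex, 2, 0 and 0 for cycling chromaffin-like, cortex and endothelial-like cells, and 5 each for fasciculata-like against inner cortex, *Mgp*-high against capillary and the transitioning pair. Divided by the median over all genes it was 0 between the adrenaline clusters. *Epha5* in noradrenaline over adrenaline cells ranged from 7.30 to 7.67 and *Sema5a* from 0.0295 to 0.0511. The transitioning adrenaline-like class was not found with 30 components, at resolution 0.2 or with the genes kept, outer cortex, fibroblast-like and lymphocyte-like classes not at resolution 0.2, and sustentacular-like, fibroblast-like and lymphocyte-like classes not under the stricter filter, so these gave no value there. Depth limits sustentacular-like cells most among the medullary classes, where the floor of 3 UMIs set for a zero corresponds to 13.3 CPM.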
